A study of Homo sapiens with 18 samples.

Results

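Genes that are recurrently altered in lung adenocarcinoma were followed in CUT&Tag peak lists from A549 cells, an established human lung adenocarcinoma line. The 9 genes EGFR, ERBB2, MET, ALK, BRAF, NF1, STK11, RB1 and MYC were chosen by name as lung cancer drivers, out of 19974 protein-coding genes on chromosomes 1 to 22 and X. For each gene, every peak touching the gene or the 20 kb to either side was taken. The cells were YTHDF1 knockout (YTHDF1-KO), ARID1A knockdown by siRNA (siARID1A) or wild type (WT), and each was profiled with an antibody against ARID1A and an antibody against YTHDF1, with 2 libraries per antibody and condition and 12 in all. All 3 conditions share the A549 background. The labels give no non-targeting siRNA control and do not say whether the knockout was 1 clone, so effects of transfection or of a clone cannot be told apart from those of the genotype.

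In CUT&Tag an antibody bound to chromatin carries a transposase to the site, and the fragments it releases are sequenced. ARID1A is a DNA-binding subunit of BAF, a SWI/SNF complex that slides and evicts nucleosomes at enhancers and promoters, and it is itself a tumour suppressor. YTHDF1 reads N6-methyladenosine in RNA and is known mainly from the cytoplasm. EGFR, ERBB2, MET and ALK encode receptor tyrosine kinases that signal through RAS to the kinase BRAF, and NF1 encodes the GTPase-activating protein that switches RAS off. STK11 encodes LKB1, the kinase that activates AMPK, and A549 is known to carry an inactivating mutation of it. RB1 encodes the pocket protein that restrains E2F, and MYC encodes a transcription factor that drives growth.

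The anti-ARID1A lists held 71271 to 106882 peaks and the anti-YTHDF1 lists 40562 to 59632. A window, meaning a gene with its flanks, was covered by peaks over 20.4 ± 5.86% of its length on average with anti-ARID1A and over 8.54 ± 2.04% with anti-YTHDF1 (mean ± SD of 6 libraries each). The siARID1A libraries stood apart within the anti-ARID1A set, with a mean window coverage of 13.1 ± 2.00%, against 24.5 ± 2.21% in WT (n = 2 each). The mitochondrial chromosome took 47.2 ± 3.23% of the list's signal in these siARID1A libraries, against 18.7 ± 0.885% in WT. Of the epithelial and lung cancer line markers, KRT8 and VIM held a peak in all 12 lists, KRT18 and CDH1 in 11, CDH2 in 9 and EPCAM in 6. Of the markers of other cell types, PTPRC and CD3E held a peak in 3 lists each and PECAM1 in all 12, so a peak in a gene was not specific to genes of the lineage. CDKN2A, a locus that A549 is known to lack, held none in any list. The share of cells with a protein at a site and the amount per cell cannot be told apart in these bulk libraries.

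Because the lists differ so much in extent, 2 scales are given. Percent covered is the share of a window that lies in peaks. Relative coverage divides this by the mean over all windows of the same library, so that 1 is an average gene. Anti-YTHDF1 libraries made from YTHDF1-KO cells show what this antibody gave in cells that lack its target. They held 46225 and 50774 peaks, against 40562 and 57764 in WT cells.

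The 9 windows held 114 to 146 peaks in each anti-ARID1A list and 63 to 97 in each anti-YTHDF1 list. Merged over the 12 lists they formed 267 regions. A list held a region when at least 1 of its peaks lay in it, so a wide region is held more easily. Regions were merged for these 9 windows only, so no share over all genes stands beside the region counts. All 12 lists held 11 of the 267 regions, in ERBB2, NF1, ALK, STK11 and MYC, and 136 were held by only 1 list. Of the 9 windows 8 held a peak in all 12 lists, as did 51.7% of all genes, and RB1 did not. All 6 anti-ARID1A lists shared 31 regions, and all 6 anti-YTHDF1 lists shared the same 11 that were in all 12. A single region, 41.0 to 47.4 kb inside MET, was in all 6 anti-ARID1A lists and in no anti-YTHDF1 list. No region was in all 6 anti-YTHDF1 lists and absent from an anti-ARID1A list.

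The start of the gene separated the members. A peak lay within 1 kb of the start in all 6 anti-ARID1A lists for EGFR, ERBB2, MET, ALK, NF1 and STK11, a pattern that 52.7% of the 15813 genes with a known strand had. RB1 held one in 4 of the anti-ARID1A lists and BRAF in 3, while 19.3% of genes held one in no such list. With anti-YTHDF1 the start of NF1 alone of these 8 genes was marked in all 6 lists, a pattern that 13.6% of genes had, and that of ERBB2 was marked in 5. ALK had 4, STK11 had 3, MET had 2, and EGFR, BRAF and RB1 had 1 each, while 32.1% of genes had none. For MYC no strand was available in the gene table used. A peak lay within 1 kb of its end of lower position in all 12 lists, and within 1 kb of its other end in all 6 anti-ARID1A and 3 anti-YTHDF1 lists.

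The promoters of NF1, MET, EGFR and BRAF are shown because they span this range, each running from 250 bases before to 50 bases after a RefSeq start in GRCh38.p14. The NF1 promoter (chr17:31094727-31095026, plus strand) overlapped a peak in all 12 lists, which 7.21% of 34789 such promoters did. The MET promoter (chr7:116671946-116672245, plus strand) overlapped one in 6 anti-ARID1A lists and 1 anti-YTHDF1 list. The EGFR promoter (chr7:55018767-55019066, plus strand) overlapped one in 5 anti-ARID1A lists and no anti-YTHDF1 list. The BRAF promoter (chr7:140924219-140924518, minus strand) has its RefSeq start 661 bases from that in the gene table and overlapped one in 3 anti-ARID1A lists and 1 anti-YTHDF1 list. Capitals mark matches, on either strand, to the GC box GGGCGG, the cyclic AMP response element TGACGTCA, the AP-1 site TGANTCA, the E-box CACGTG or the CCAAT box CCAAT.
NF1: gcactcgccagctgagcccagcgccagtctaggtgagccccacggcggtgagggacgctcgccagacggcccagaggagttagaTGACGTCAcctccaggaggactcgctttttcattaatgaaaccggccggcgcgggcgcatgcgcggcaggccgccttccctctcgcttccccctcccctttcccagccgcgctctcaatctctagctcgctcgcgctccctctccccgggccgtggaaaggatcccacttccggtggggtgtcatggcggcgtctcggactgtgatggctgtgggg
MET: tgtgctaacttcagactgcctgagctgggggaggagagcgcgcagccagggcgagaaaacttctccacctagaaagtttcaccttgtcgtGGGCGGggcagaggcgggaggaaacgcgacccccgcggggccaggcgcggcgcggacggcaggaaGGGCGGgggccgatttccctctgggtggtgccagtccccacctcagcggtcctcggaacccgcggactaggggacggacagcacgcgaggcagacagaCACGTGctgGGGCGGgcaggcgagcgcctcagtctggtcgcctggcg
EGFR: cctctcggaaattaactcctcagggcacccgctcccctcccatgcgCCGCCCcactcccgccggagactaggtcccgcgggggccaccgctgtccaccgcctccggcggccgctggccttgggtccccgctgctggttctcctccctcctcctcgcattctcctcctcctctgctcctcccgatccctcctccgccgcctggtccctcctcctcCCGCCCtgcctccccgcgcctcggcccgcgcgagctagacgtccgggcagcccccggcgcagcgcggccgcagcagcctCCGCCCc
BRAF: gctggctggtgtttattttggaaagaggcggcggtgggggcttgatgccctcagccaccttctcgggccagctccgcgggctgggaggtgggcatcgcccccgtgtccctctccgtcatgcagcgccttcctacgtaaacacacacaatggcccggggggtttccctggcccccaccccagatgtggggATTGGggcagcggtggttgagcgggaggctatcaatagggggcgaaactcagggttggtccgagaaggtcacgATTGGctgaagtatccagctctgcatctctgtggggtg
The NF1 promoter carried the response element TGACGTCA, 166 bases before the start, which 1.84% of promoters hold. The MET promoter carried 3 GC boxes and 1 E-box. EGFR had 3 GC boxes, a motif that 44.9% of promoters hold, and BRAF had none but 2 CCAAT boxes, a motif in 34.6% of promoters. A match describes the letters of the window and is not a measured site.

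**Figure D1:**
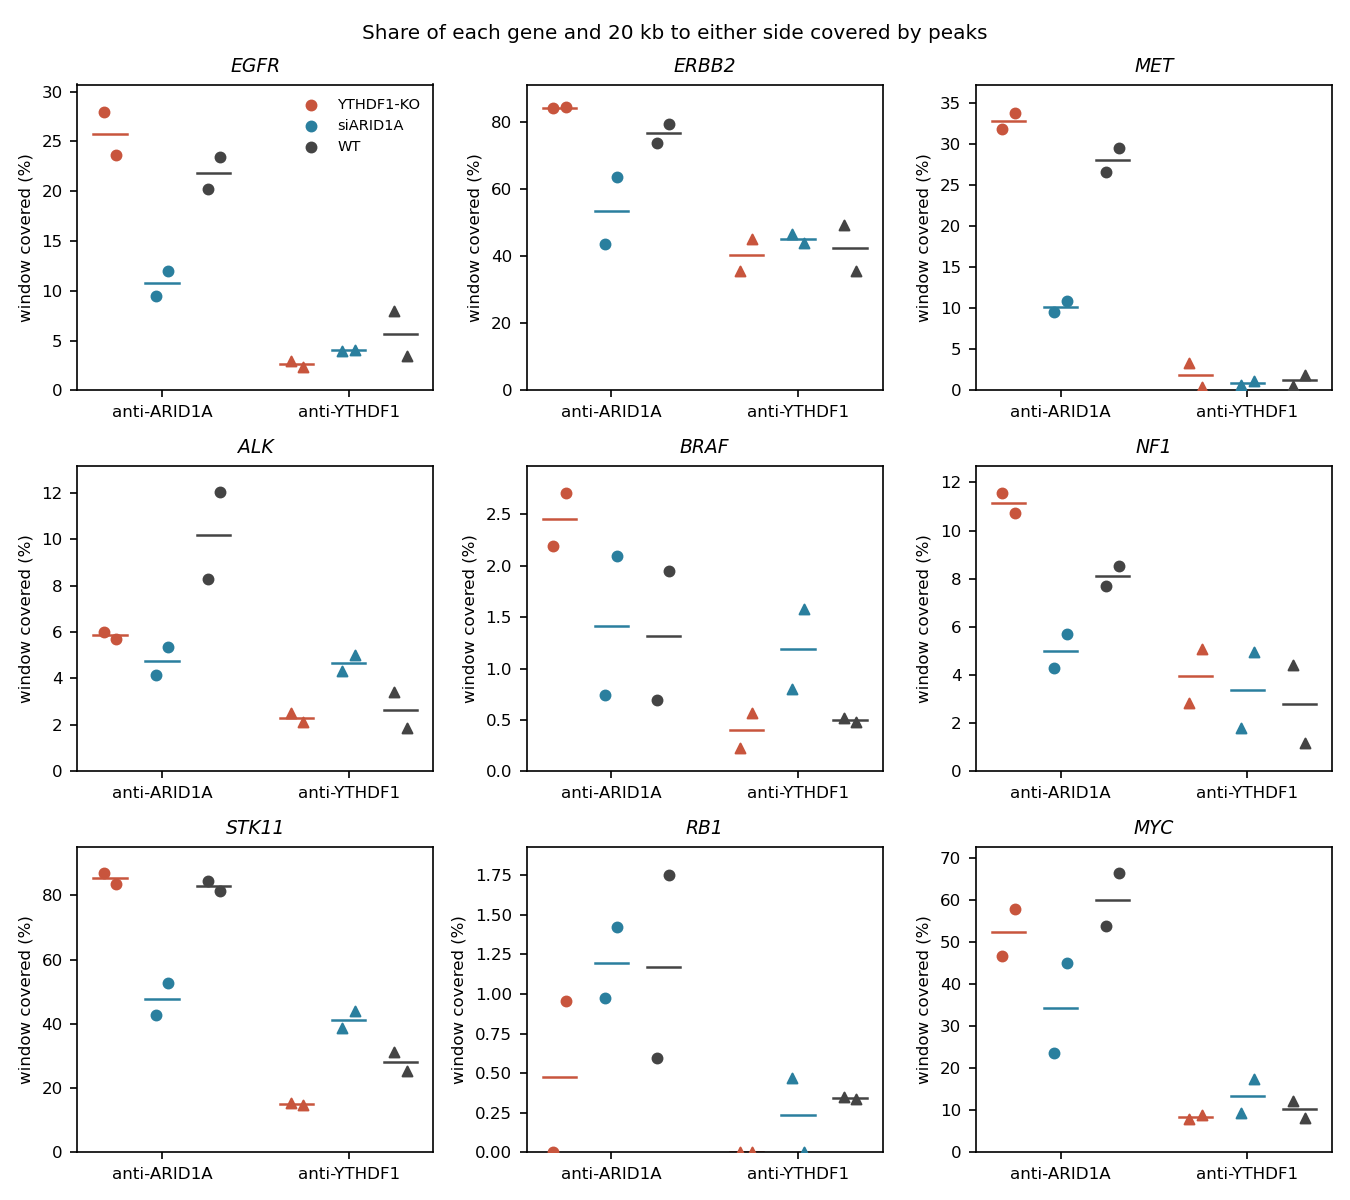
Percent of each gene and its 20 kb flanks covered by peaks, with 1 point per library (circles anti-ARID1A, triangles anti-YTHDF1), colours for the conditions and a bar at the mean of 2 libraries. For EGFR, MET and MYC every anti-ARID1A library sits above every anti-YTHDF1 library, and for MET the anti-YTHDF1 libraries stay between 0.428% and 3.29%.

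MET, the receptor for hepatocyte growth factor, showed the largest ratio between the antibodies of the 8 genes that allow one, though STK11, MYC and ERBB2 had larger differences in percentage points. With anti-ARID1A the peaks covered 31.8% and 33.8% of its window in YTHDF1-KO, 9.49% and 10.9% in siARID1A and 26.5% and 29.5% in WT. With anti-YTHDF1 they covered 3.29% and 0.428% in YTHDF1-KO, 0.661% and 1.18% in siARID1A and 0.530% and 1.91% in WT. The 2 sets did not overlap, and the lowest anti-ARID1A library lay above the highest anti-YTHDF1 library. The anti-ARID1A lists held 13 to 25 peaks there, against 1 to 6 in the anti-YTHDF1 lists. The strongest anti-ARID1A peak topped 104.6 to 104.9 kb inside the gene in 5 of 6 libraries and at the start in siARID1A replicate 2, and its total signal ranked above 90.1% to 97.8% of the peaks of its list. In 5 of the 6 anti-YTHDF1 lists the strongest peak ranked above 2.38% to 49.1% of the list, and in YTHDF1-KO replicate 1 above 93.0%.

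EGFR, the receptor for epidermal growth factor, carried anti-ARID1A peaks along most of its length. The values were 28.0% and 23.6% in YTHDF1-KO, 9.49% and 12% in siARID1A and 20.2% and 23.5% in WT. With anti-YTHDF1 they were 2.9% and 2.32% in YTHDF1-KO, 4.00% and 4.11% in siARID1A and 7.98% and 3.42% in WT. Every anti-ARID1A library again lay above every anti-YTHDF1 library, though WT replicate 1 of the anti-YTHDF1 set stood well above its companions. All 6 anti-ARID1A lists held 6 regions, 1 over the start and the other 5 inside the gene. The widest of them, 43.8 to 57.4 kb from the start, and the one at 109.5 to 115.9 kb were each also held by 5 anti-YTHDF1 lists. The strongest anti-ARID1A peak topped at 113.9 to 114.1 kb in 5 libraries and at 46.7 kb in WT replicate 1. The 2 WT anti-YTHDF1 libraries had their strongest peak at 113.7 kb. The region over the start was in all 6 anti-ARID1A lists and 1 anti-YTHDF1 list, and the other anti-YTHDF1 peaks lay inside the gene or past its far end.

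**Figure D2:**
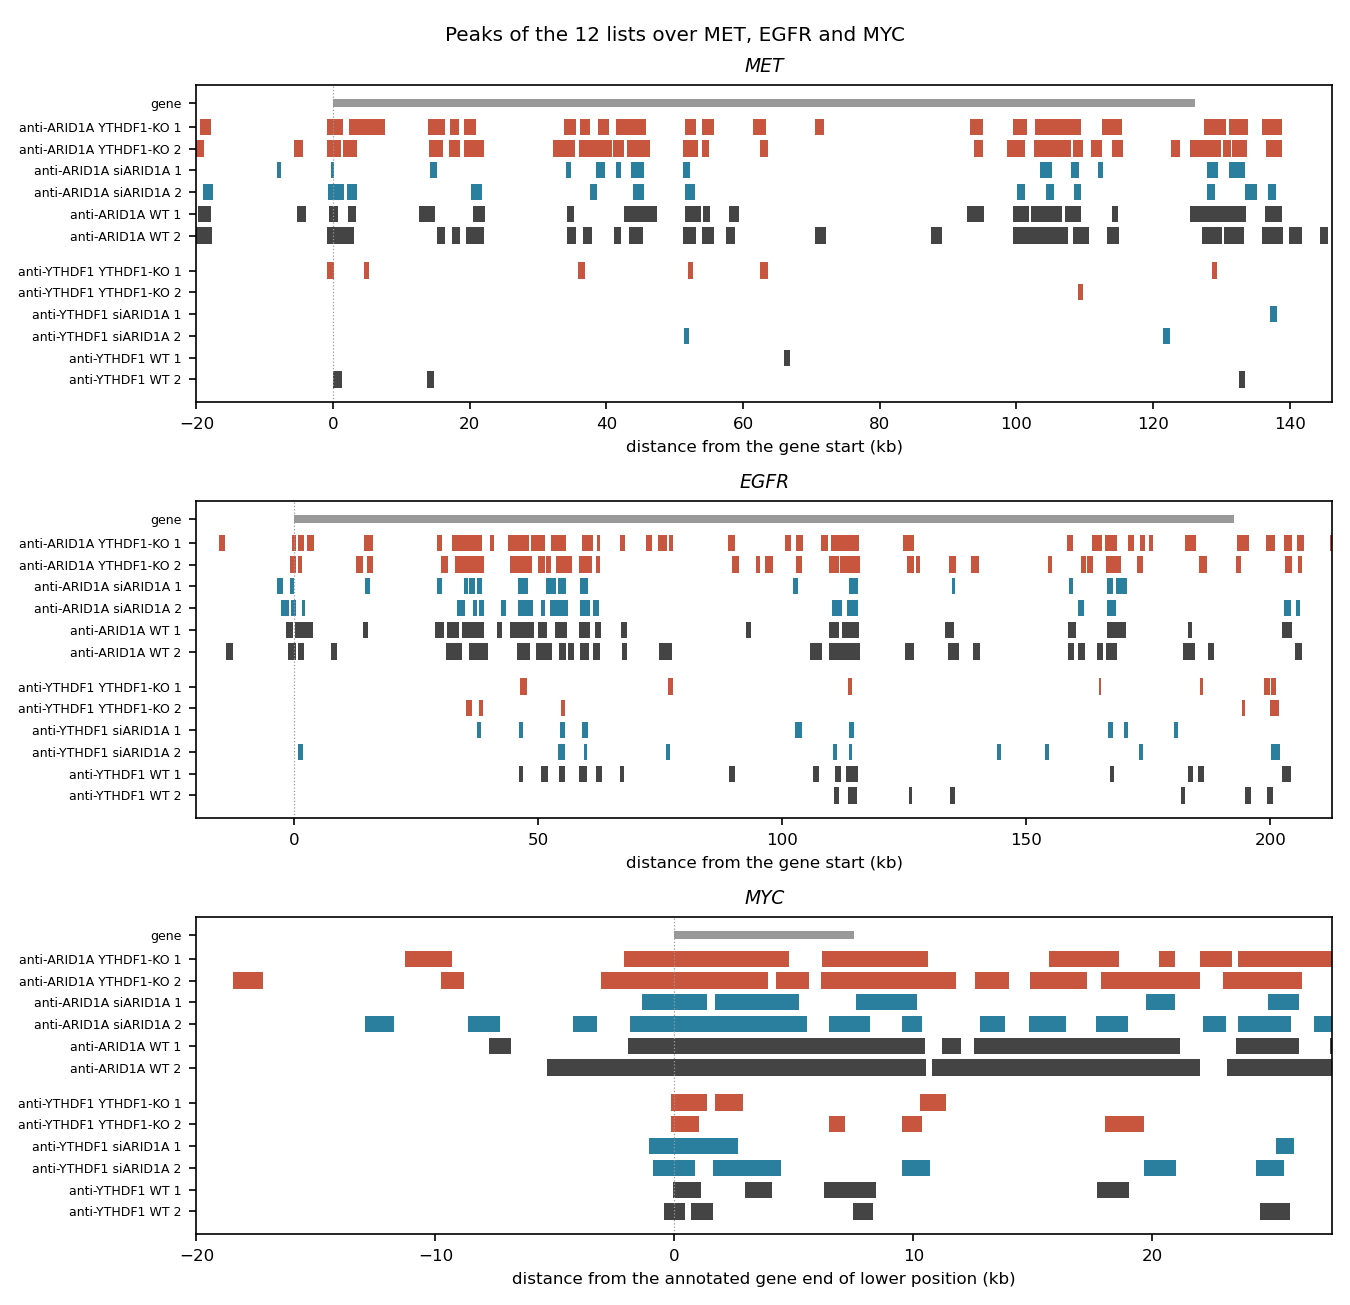
Peaks of the 12 lists along MET, EGFR and MYC, with 1 row per library, bars for peaks, a grey bar for the gene and distance in kb from the gene start (for MYC, from its annotated end of lower position). MET shows 13 to 25 peaks in anti-ARID1A rows and 1 to 6 in anti-YTHDF1 rows, EGFR shows shared blocks at 43.8 to 57.4 and 109.5 to 115.9 kb, and the MYC gene is covered over 100% in the 2 WT anti-ARID1A rows and over 64.7% to 88.8% in the other anti-ARID1A rows.

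MYC lies in a window with no other protein-coding gene. Anti-ARID1A covered 46.7% and 57.9% of it in YTHDF1-KO, 23.7% and 45.1% in siARID1A and 53.7% and 66.3% in WT. Anti-YTHDF1 covered 7.86% and 8.94% in YTHDF1-KO, 9.40% and 17.4% in siARID1A and 12.3% and 8.17% in WT. The 2 sets did not overlap. A single region of 34668 bases, merged from 58 peaks, spanned the gene, and each of the 12 lists had at least 1 peak in it. Anti-YTHDF1 peaks covered only 3.74 to 8.29 kb of the whole window. In both WT anti-ARID1A libraries the gene itself was covered over 100% of its 7.52 kb, by 1 peak of 12459 bases in WT replicate 1 and 1 of 15858 bases in WT replicate 2. In YTHDF1-KO the strongest anti-ARID1A peaks were 6908 and 7004 bases wide, and in siARID1A 2721 and 7442 bases. The strongest anti-ARID1A peak ranked above 98.7% to 99.3% of its list in all 6 libraries, and the strongest anti-YTHDF1 peak above 66.8% to 97.2%.

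ERBB2, the receptor that is amplified in some lung and breast cancers, sits in a gene-dense window that also holds PNMT, PGAP3, MIEN1 and GRB7. Both antibodies covered much of it. Anti-ARID1A covered 84.1% and 84.4% in YTHDF1-KO, 43.6% and 63.6% in siARID1A and 73.9% and 79.5% in WT. Anti-YTHDF1 covered 35.5% and 45.1% in YTHDF1-KO, 46.6% and 44.0% in siARID1A and 49.4% and 35.7% in WT. Only the lowest anti-ARID1A library, from siARID1A cells, lay within the anti-YTHDF1 range. Of its 6 regions 4 were in all 12 lists. The anti-ARID1A lists held 9 to 22 peaks with median widths of 1220 to 9761 bases, against 16 to 24 with medians of 999 to 1935 bases in the anti-YTHDF1 lists, and the number did not pass the permutation test (adjusted p = 0.132). The strongest anti-ARID1A peak topped outside the gene in all 6 libraries, 52.4 to 52.7 kb from the start in 3 and 21.8 to 24.2 kb before it in the other 3. The tops before the start lay beyond the 20 kb flank, and those peaks reached into the window from outside.

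STK11 showed the highest coverage with anti-ARID1A in WT, in a window it shares with CBARP and ATP5F1D. Anti-ARID1A covered 87.0% and 83.5% in YTHDF1-KO, 42.8% and 52.6% in siARID1A and 84.3% and 81.2% in WT. Anti-YTHDF1 covered 15.5% and 14.9% in YTHDF1-KO, 38.7% and 43.9% in siARID1A and 31.1% and 25.5% in WT. In siARID1A the ranges of the antibodies overlapped, while in YTHDF1-KO and WT they lay far apart. The strongest anti-ARID1A peak ranked above about 99.8% of its list or more in all 6 libraries. In each of them its top lay outside STK11 and beyond the 20 kb flanks. These peaks reached into the window from outside, so their ranks include signal beyond it. Inside the gene, a region from 0.420 to 22.6 kb was held by all 12 lists.

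ALK is the longest member at 729 kb, and its coverage was low and clustered. Anti-ARID1A covered 5.99% and 5.71% in YTHDF1-KO, 4.17% and 5.34% in siARID1A and 8.29% and 12% in WT. Anti-YTHDF1 covered 2.5% and 2.12% in YTHDF1-KO, 4.33% and 5.02% in siARID1A and 3.40% and 1.87% in WT. The antibodies overlapped in siARID1A and lay apart in YTHDF1-KO and WT. Of its 115 regions, 66 were held by 1 list only. The 2 regions in all 12 lists lay deep inside the gene, at 672.5 to 678.9 kb and 690.1 to 699.8 kb from the start. The start itself was held by all 6 anti-ARID1A and 4 anti-YTHDF1 lists. The strongest anti-ARID1A peak topped 173.3 kb from the start in 5 of 6 libraries and at 705 kb in siARID1A replicate 2, whereas no anti-YTHDF1 library had its strongest peak at 173.3 kb.

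NF1 was marked at both edges and little in between. Anti-ARID1A covered 11.6% and 10.7% of the window in YTHDF1-KO, 4.30% and 5.71% in siARID1A and 7.69% and 8.53% in WT. Anti-YTHDF1 covered 2.84% and 5.06% in YTHDF1-KO, 1.82% and 4.95% in siARID1A and 4.40% and 1.16% in WT. Again the antibodies overlapped in siARID1A only. The regions held by all 12 lists were the start (10.7 kb before it to 2.20 kb after it) and the far edge of the window, beyond the end of the gene and towards RAB11FIP4. The gene itself was covered over 2.3% to 6.01% with anti-ARID1A and 0.909% to 3.58% with anti-YTHDF1. In all 6 anti-YTHDF1 libraries the strongest peak of the window topped within 1 kb of the start. With anti-ARID1A it did so in the siARID1A and WT libraries, and in both YTHDF1-KO libraries it lay at the far edge.

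BRAF and RB1 carried few peaks. Anti-ARID1A covered 2.19% and 2.71% of the BRAF window in YTHDF1-KO, 0.742% and 2.09% in siARID1A and 0.696% and 1.94% in WT. Anti-YTHDF1 covered 0.232% and 0.572% in YTHDF1-KO, 0.803% and 1.57% in siARID1A and 0.524% and 0.476% in WT. Much of this was not BRAF itself, since the strongest anti-ARID1A peak in all 6 libraries topped 227.7 to 228.2 kb from the start, beyond the end of the gene and over NDUFB2. For RB1 the anti-ARID1A values were 0% and 0.957% in YTHDF1-KO, 0.971% and 1.42% in siARID1A and 0.595% and 1.75% in WT. The anti-YTHDF1 values were 0% in both YTHDF1-KO libraries, 0.472% and 0% in siARID1A and 0.351% and 0.340% in WT. No list held more than 3 peaks in the RB1 window, and 4 of 12 held none.

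**Figure D3:**
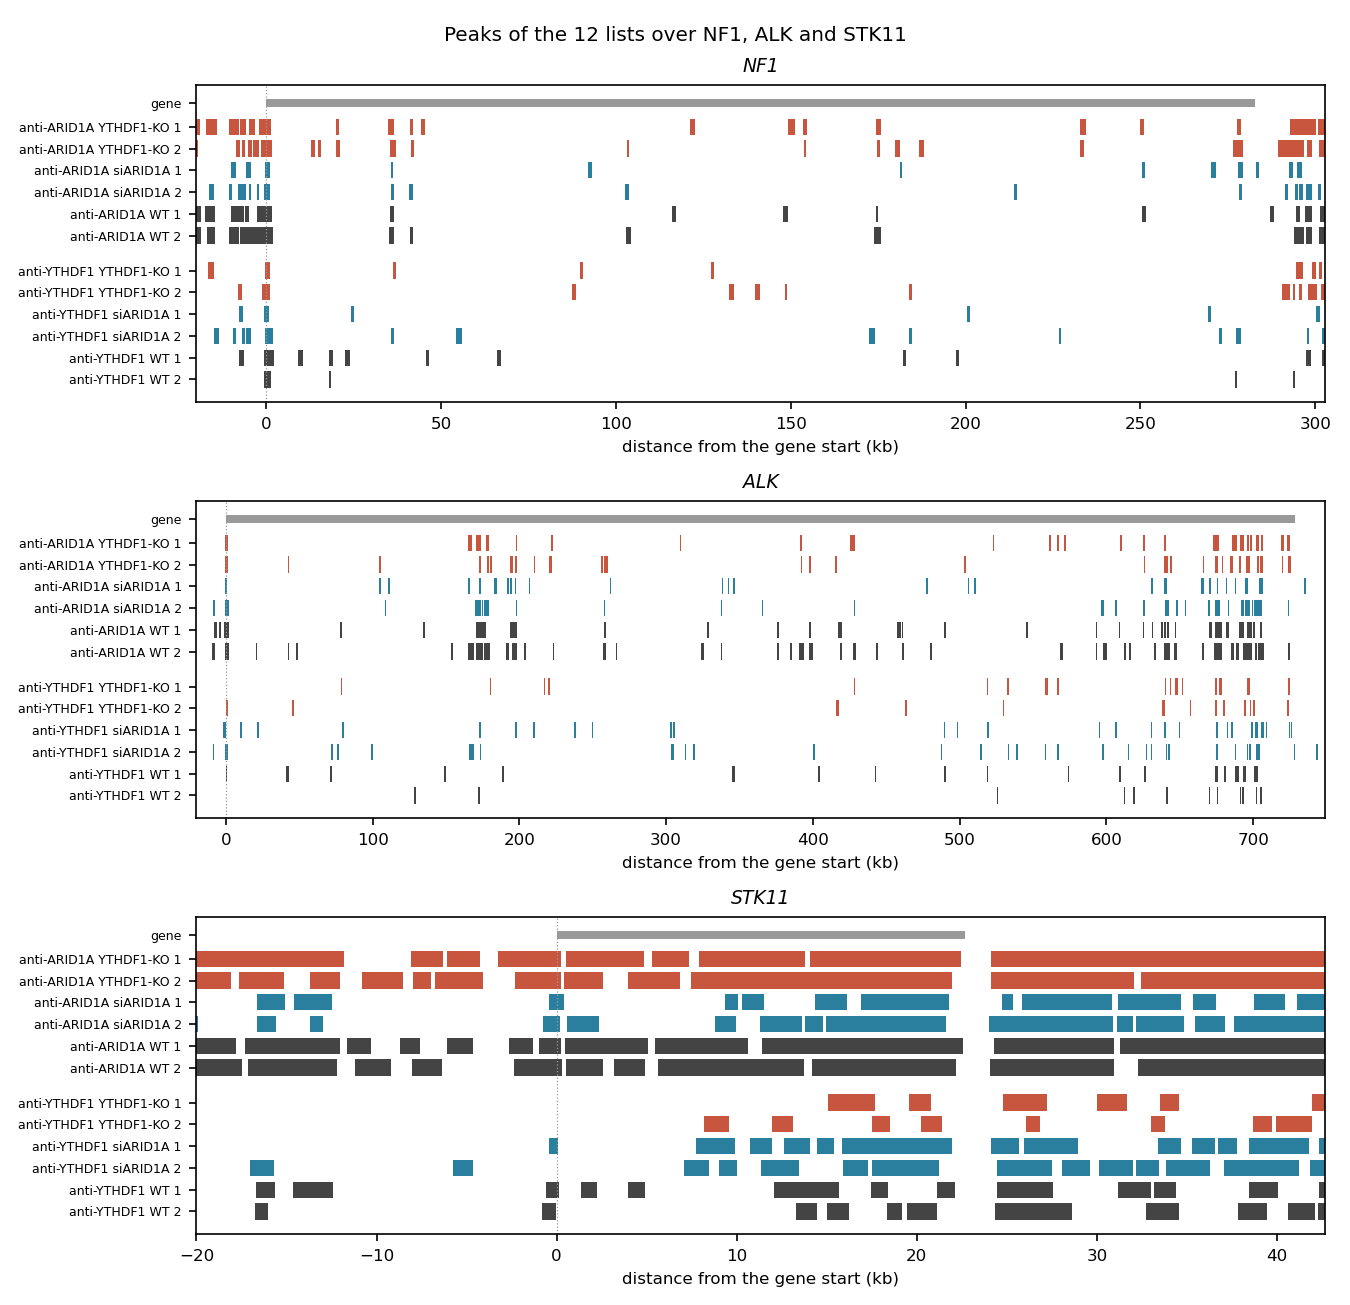
Peaks of the 12 lists along NF1, ALK and STK11, with 1 row per library, bars for peaks, a grey bar for the gene and distance in kb from the gene start. NF1 is marked at its start in every row and again past its far end, and ALK has shared clusters near 672.5 to 699.8 kb. The STK11 start is empty in the anti-YTHDF1 rows of YTHDF1-KO cells and of siARID1A replicate 2.

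The antibodies were then compared over all 12 libraries, 6 against 6, with an exact two-sided permutation test per gene and Benjamini-Hochberg adjustment over all 19974 genes. All 9 genes were covered more with anti-ARID1A at an adjusted p under 0.05, against a background of 67.2% of all genes higher and 0.225% lower, or 67.4% in either direction. The count is therefore what most genes showed. The adjusted p was 0.00822 for EGFR, MET and MYC, which the smallest permutation p of 0.0021645 gives, and 0.0119 for STK11, 0.0149 for ALK, 0.0210 for ERBB2 and NF1 and 0.0348 for BRAF and RB1 by the exact permutation test. The ratio of means was 17.8 for MET (23.7 ± 10.7% with anti-ARID1A and 1.33 ± 1.11% with anti-YTHDF1). It was 4.72 for EGFR (19.4 ± 7.22% with anti-ARID1A and 4.12 ± 2.01% with anti-YTHDF1) and 4.58 for MYC (48.9 ± 14.6% with anti-ARID1A and 10.7 ± 3.66% with anti-YTHDF1). The 1 Mb on either side of these genes differed in the same direction. Its mean cover was 7.05% with anti-ARID1A and 0.715% with anti-YTHDF1 around MET. Around EGFR it was 3.93% and 0.708%, and around MYC 14.4% and 2.74%, in the same order. Whether these genes differed more than their surroundings was not tested. The other genes had ratios from 1.67 for ERBB2 (71.5 ± 15.8% with anti-ARID1A and 42.7 ± 5.80% with anti-YTHDF1) to 2.55 for STK11 (71.9 ± 19.1% with anti-ARID1A and 28.2 ± 11.9% with anti-YTHDF1), below the median ratio of 2.95 over all genes. No ratio is given for RB1, which was at 0 in 3 anti-YTHDF1 libraries. In WT cells alone both anti-ARID1A libraries lay above both anti-YTHDF1 libraries for all 9 genes, and in siARID1A cells this held for EGFR, MET, RB1 and MYC. BRAF missed the threshold of the permutation test, with an adjusted p of 0.0595 to 0.0840, without any single library other than siARID1A replicate 1 or WT replicate 1 of anti-ARID1A or siARID1A replicate 2 of anti-YTHDF1. RB1 missed it, with an adjusted p of 0.0609 to 0.0690, without WT replicate 2 of anti-ARID1A or without either YTHDF1-KO library or siARID1A replicate 2 of anti-YTHDF1.

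The relative scale sets the mean window of every library to 1, but does not equalise the spread or the upper limit. On it MET, EGFR and MYC stayed higher with anti-ARID1A. ERBB2 passed as lower, and the other 5 did not pass the test. In the same permutation test 12.9% of all genes were higher and 5.6% lower. MET had 1.1 ± 0.274 times the average gene with anti-ARID1A and 0.178 ± 0.172 with anti-YTHDF1, a ratio of 6.21. EGFR had 0.932 ± 0.130 with anti-ARID1A and 0.471 ± 0.139 with anti-YTHDF1, a ratio of 1.98. MYC had 2.41 ± 0.422 with anti-ARID1A and 1.25 ± 0.249 with anti-YTHDF1, a ratio of 1.93. The adjusted permutation p was 0.0213 for each of these, and the median ratio over all genes was 1.21. ERBB2 had 3.59 ± 0.465 times the average with anti-ARID1A and 5.14 ± 0.821 with anti-YTHDF1, a ratio of 0.698 with an adjusted permutation p of 0.0311. The measure itself sets this direction in WT and YTHDF1-KO cells. Since percent covered stops at 100, relative coverage cannot exceed 3.84 to 4.37 in the WT and YTHDF1-KO anti-ARID1A libraries, while the 4 anti-YTHDF1 libraries of those cells had 4.43 to 6.45 at ERBB2. In siARID1A cells, where the limit was 8.57 and 6.9 with anti-ARID1A, ERBB2 had 3.73 and 4.39 with anti-ARID1A and 4.88 and 4.28 with anti-YTHDF1 and overlapped. Of the 5 not called, STK11 had 3.55 ± 0.212 with anti-ARID1A and 3.25 ± 0.990 with anti-YTHDF1, and NF1 0.394 ± 0.0631 with anti-ARID1A and 0.397 ± 0.201 with anti-YTHDF1. The difference in relative coverage exceeded that of MYC in 1.84% of all genes and that of MET in 3.57%.

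The knockdown of ARID1A went with less anti-ARID1A coverage of most of these genes, as it did across the genome. Both siARID1A libraries lay below both WT libraries for 7 of the 9 genes, and 71.9% of all genes did so, with 1.22% higher. The mean over all windows in siARID1A was 0.535 times that in WT, a shift of -0.90 on the log2 scale. With 2 libraries a group no test was made, since the smallest exact two-sided permutation p is 0.33. MET was at 10.2 ± 1.01% in siARID1A and 28.0 ± 2.08% in WT, a ratio of 0.364. EGFR had a ratio of 0.492 and ALK of 0.468. ERBB2 had the ratio closest to 1 of the 7, at 0.698 (53.6 ± 14.1% in siARID1A and 76.7 ± 3.97% in WT). BRAF and RB1 overlapped, with 1.42 ± 0.956% in siARID1A and 1.32 ± 0.882% in WT for BRAF.

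Set to the library average, the genes parted. MET and EGFR were lower in both siARID1A libraries than in both WT libraries, as were 30.3% of all genes, with ratios of 0.684 and 0.920. ERBB2, NF1 and RB1 were higher, as were 18.9% of all genes, with ratios of 1.29, 1.15 and 1.95. The limit bears on ERBB2 here too, since siARID1A replicate 2, at 4.39, lay above the highest value that either WT library could take. The RB1 ratio rests on few peaks, 2 and 3 in the siARID1A libraries and 1 and 2 in the WT libraries. Percent covered of RB1 overlapped, at 0.971% and 1.42% in siARID1A and 0.595% and 1.75% in WT. ALK, BRAF, STK11 and MYC overlapped. The 1 Mb on either side of MET also had a ratio of 0.368 in percent covered, and that around EGFR of 0.493, so the surroundings of both genes moved as the genes did. Of the 57 regions that both WT anti-ARID1A libraries held, 12 were in neither siARID1A library. Of those 12, 5 were in ALK, which had 16 such WT regions, while all 4 of the WT regions of ERBB2 were held by at least 1 siARID1A library. The 4 ERBB2 regions were 16793 to 41232 bases wide, so 1 peak anywhere in them was enough. No share over all genes was computed for these region counts. The part of the higher mitochondrial share of signal in siARID1A in these values was not tested.

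In YTHDF1-KO cells anti-ARID1A coverage differed little over the genome, with a ratio of the mean window of 0.971. Both YTHDF1-KO libraries lay above both WT libraries for EGFR, ERBB2, MET, BRAF and NF1, as did 15.3% of all genes, and below for ALK, as did 20.5%. BRAF held only 3 and 4 peaks in the YTHDF1-KO libraries and 1 and 3 in the WT libraries. Over the BRAF gene without its flanks the conditions overlapped, with 1.28% and 0.435% in YTHDF1-KO and 0% and 1.43% in WT. NF1 was at 11.1 ± 0.610% in YTHDF1-KO and 8.11 ± 0.595% in WT, a ratio of 1.37, while the 1 Mb around it had 1.01. EGFR (25.8 ± 3.09% in YTHDF1-KO and 21.8 ± 2.3% in WT) and MET (32.8 ± 1.37% in YTHDF1-KO and 28.0 ± 2.08% in WT) had ratios of 1.18 and 1.17, and their 1 Mb surroundings had 1.14 and 1.22. ERBB2 had a ratio of 1.1, and its surroundings 1.00. The same 6 genes were called in the same direction on the relative scale, where 19.8% of all genes were higher and 18.5% lower. With lists of equal length the EGFR difference turned to -0.372 percentage points, and set against the 1 Mb around it the MET difference turned too. Of the 12 regions that both YTHDF1-KO libraries held and neither WT library held, 4 were in EGFR and 4 in NF1. In the other direction, 6 regions were held by both WT libraries and neither YTHDF1-KO library, 5 of them in ALK. Neither count has a share over all genes beside it.

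ALK went the other way, with 5.85 ± 0.200% in YTHDF1-KO and 10.2 ± 2.65% in WT, a ratio of 0.576. Its surroundings had a ratio of 0.646, and chromosome 2, where it lies, had a relative coverage over its 1254 genes of 0.690 times that of WT. With anti-YTHDF1 chromosome 2 had 0.668 times the relative coverage of WT in YTHDF1-KO cells, while ALK itself was at 2.31 ± 0.269% in YTHDF1-KO and 2.63 ± 1.08% in WT and overlapped. Chromosome 17, which carries ERBB2 and NF1, had 1.13 times the relative anti-ARID1A coverage of WT in YTHDF1-KO and 1.2 times in siARID1A. The part of these chromosome-wide shifts, and of any difference in chromosome copies between the cells, in the values of ALK, ERBB2 and NF1 was not tested.

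**Figure D4:**
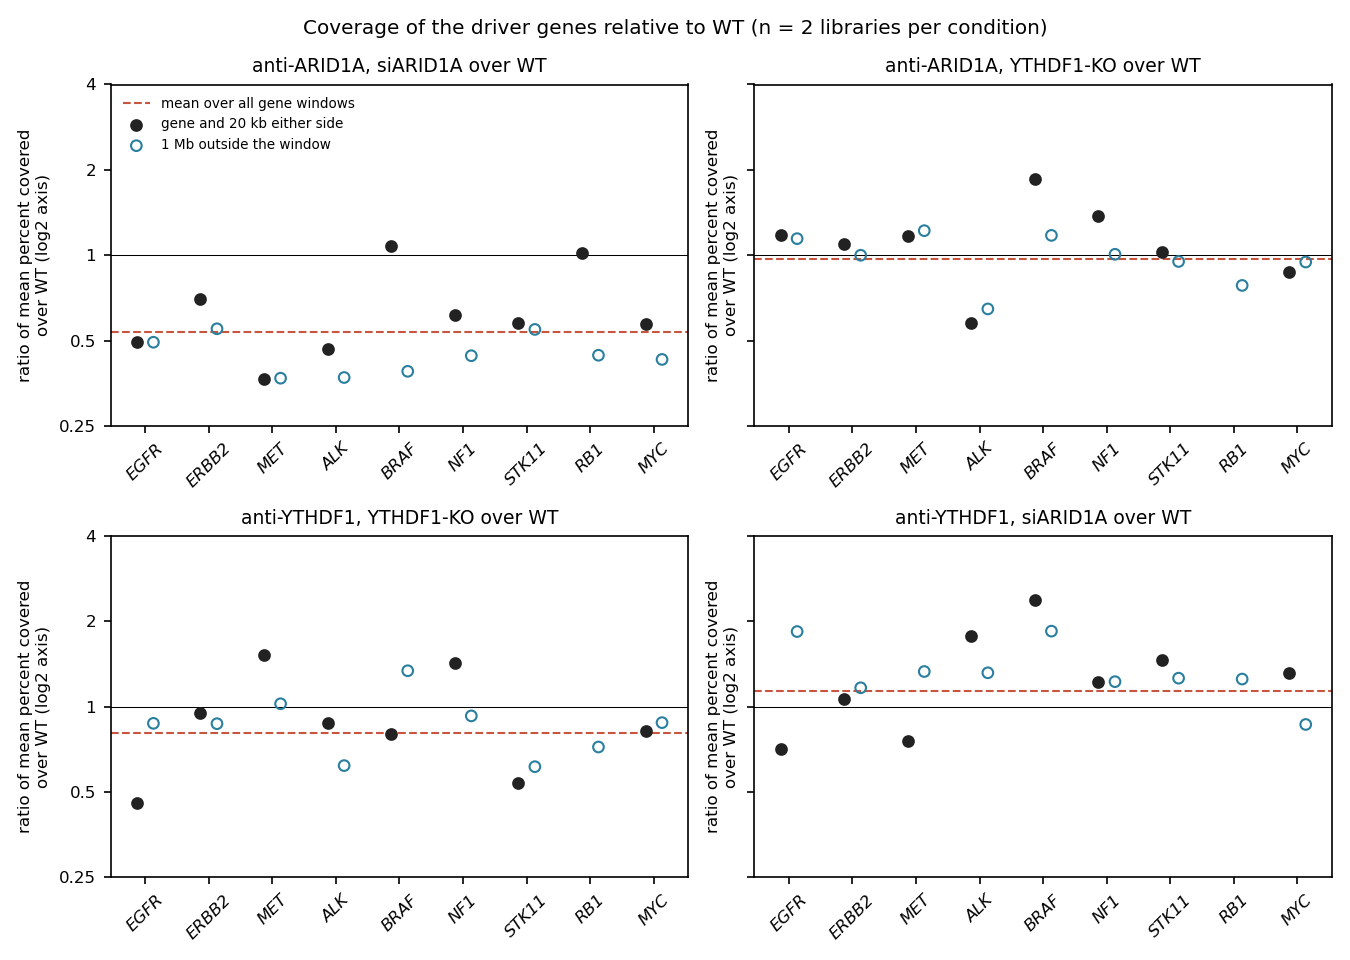
Ratio of mean percent covered over WT for each gene (filled) and for the 1 Mb outside its window on either side (open), on a log2 axis, in the 4 comparisons with n = 2 libraries per condition. The dashed line is the ratio of the mean over all gene windows, and the filled point of RB1 is left out where a library was at 0. In siARID1A with anti-ARID1A 7 genes sit well below 1, and in YTHDF1-KO with anti-ARID1A ALK sits at 0.576 beside surroundings at 0.646.

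With anti-YTHDF1, 6 of the 9 genes overlapped between YTHDF1-KO and WT. The mean window coverage was 11.2% and 6.25% in the 2 WT libraries. Both YTHDF1-KO libraries, at 7.01% and 6.99%, lay between them, so overlap is likely for genes in general. Both YTHDF1-KO libraries lay below both WT libraries for EGFR, STK11 and RB1, as did 16.6% of all genes, and none was above, as 7.63% were. STK11 was at 15.2 ± 0.472% in YTHDF1-KO and 28.3 ± 3.99% in WT, a ratio of 0.537, against 0.805 for the mean window. Its 1 Mb surroundings had 0.614. The start of STK11 was held by both WT anti-YTHDF1 libraries and by neither YTHDF1-KO library. A peak there was also missing in siARID1A replicate 2. The anti-YTHDF1 peaks of the region over this start ranked above only 3.99% to 27.8% of their lists. What share of all genes lost a start peak was not computed. EGFR was at 2.61 ± 0.416% in YTHDF1-KO and 5.70 ± 3.22% in WT, where 1 library carried most of the difference. RB1 was at 0% in both YTHDF1-KO libraries, against 0.346 ± 0.00778% in WT, which is 1 peak in each WT library at different places. Set to the library average the same 3 genes were lower, as were 13.9% of all genes. NF1 was higher, as were 15.4%, at 0.405 and 0.725 times the average gene in YTHDF1-KO and 0.395 and 0.186 in WT, while its percent covered overlapped. Chromosome 17 as a whole had 1.21 times the relative coverage of WT here, and its part in the NF1 value was not tested. Of the 19 regions that both WT anti-YTHDF1 libraries held, 5 were in neither YTHDF1-KO library and the others were still held by at least 1. The share over all genes was not computed for such losses. Leaving out 1 library leaves a lone library in a group, which makes overlap less likely by construction, so counts from such runs are not read as a result here.

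In siARID1A cells anti-YTHDF1 coverage was higher in both libraries than in both WT libraries for ALK, BRAF and STK11, as it was for 17.8% of all genes, and lower for none, as for 6.4%. STK11 was at 41.3 ± 3.66% in siARID1A and 28.3 ± 3.99% in WT, a ratio of 1.46, and its surroundings had 1.26. ALK was at 4.68 ± 0.487% in siARID1A and 2.63 ± 1.08% in WT, a ratio of 1.78, and BRAF at 1.19 ± 0.546% in siARID1A and 0.5 ± 0.0340% in WT, a ratio of 2.38. The 1 Mb surroundings had ratios of 1.32 for ALK and 1.85 for BRAF. The BRAF ratio rests on few peaks, 2 and 3 in the siARID1A libraries and 2 in each WT library. The mean window had a ratio of 1.14. On the relative scale ALK and BRAF were still higher, as were 16.1% of genes, STK11 overlapped, and EGFR was lower, as were 13.6%. With 1 library left out a group holds a lone library, which makes overlap less likely by construction. Counts of genes lying apart from such runs are therefore not read as a result about these genes. The comparisons with WT of each antibody share the same 2 WT libraries, and the 2 WT anti-YTHDF1 libraries differed from each other by more than the libraries of any other group (mean window coverage 8.70 ± 3.46%).

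A list of 59 further genes of these pathways, all found in the gene table, was set beside the 9. With anti-ARID1A 48 of 59 were covered more than with anti-YTHDF1 by the exact permutation test adjusted over all genes and 0 less, against 67.2% and 0.225% of all genes, with a median difference of 9.64 percentage points against 6.70 over all genes. On the relative scale 13 were higher and 4 lower, against 12.9% and 5.6% of all genes, and genes that are widely covered with anti-ARID1A can be lowered there by the limit described for ERBB2. MAP2K2, the kinase between RAF and ERK, was at 52.6 ± 22.2% with anti-ARID1A and 10.7 ± 4.36% with anti-YTHDF1. CCND1, the cyclin D1 that activates CDK4, was at 2.41 ± 0.225 times the average gene with anti-ARID1A and 1.22 ± 0.473 with anti-YTHDF1. ERRFI1, a feedback inhibitor of EGFR, was at 1.36 ± 0.299 with anti-ARID1A and 0.301 ± 0.272 with anti-YTHDF1.

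In siARID1A with anti-ARID1A, 51 of the 59 were lower in both libraries than in WT and 0 higher, against 71.9% and 1.22% of all genes. On the relative scale 21 were lower and 15 higher, against 30.3% and 18.9%. In percent covered E2F1, the factor that RB1 restrains, was at 30.1 ± 5.92% in siARID1A and 82.9 ± 4.86% in WT. In YTHDF1-KO with anti-ARID1A, 7 were higher and 12 lower, against 15.3% and 20.5% of all genes, and 16 higher and 13 lower on the relative scale, against 19.8% and 18.5%. MYCN, a relative of MYC on chromosome 2, was at 0.399 ± 0.565% in YTHDF1-KO and 16.9 ± 1.70% in WT, and TGFA, a ligand of EGFR on the same chromosome, at 15.4 ± 3.99% in YTHDF1-KO and 28.6 ± 4.58% in WT. With anti-YTHDF1, 3 were higher and 9 lower in YTHDF1-KO, against 7.63% and 16.6% of all genes, and 10 higher and 9 lower on the relative scale, against 15.4% and 13.9%. In siARID1A 14 were higher and 4 lower, against 17.8% and 6.4%, and 15 higher and 10 lower on the relative scale, against 16.1% and 13.6%. CDK4, the kinase that phosphorylates RB1, was at 52.6 ± 7.86% in siARID1A and 33.8 ± 14.5% in WT with anti-YTHDF1.

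For each gene the protein-coding gene elsewhere whose percent covered followed it most closely over the 12 libraries was found by the mean absolute difference. SPMIP3 was nearest to MET, 1.38 percentage points away on average, with means of 23.6% with anti-ARID1A and 1.06% with anti-YTHDF1. METTL2A was nearest to EGFR at 1.18 points, TRIR to MYC at 3.61 points, FBXL15 to ERBB2 at 3.66 points and FZR1 to STK11 at 3.61 points. PSMB2 was nearest to ALK at 0.678 points, CENPN to NF1 at 0.965, CCDC149 to BRAF at 0.312 and PDE1A to RB1 at 0.191.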

How the data were processed

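The 12 peak lists from A549 cells, 1 per library, were used, and IgG samples and the double perturbation of the design text were not analysed here. The submitters' processing notes name deepTools 3.5.2, SEACR 1.3, bedtools 2.30.0, SAMtools 1.9, Bowtie2 2.4.2 and fastp 0.23.2, with hg38. The deposited lists give each peak a total and a highest signal (coverage), whose scale and whose relation to IgG are not given in the sources used. Signal therefore served only to rank peaks within a list, and ranks of lists of different length show no change. Sequencing depth is unknown.

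The peaks of chromosomes 1 to 22 and X were intersected, at 1 bp or more, with RefSeq GRCh38.p14 genes and 20 kb to either side, in Python 3.11.15 with numpy 2.4.6 and pandas 2.3.3. Strand came from the RefSeq promoter table. Antibodies were compared by an exact two-sided permutation test over 924 splits, adjusted by Benjamini-Hochberg over all genes at 0.05. Libraries were pooled over conditions in that test. It was first run on simulated data without differences between conditions, so that run does not show how it behaves where conditions differ. Conditions were compared by whether both libraries lay above or below both WT libraries. The labels do not say whether replicates were separate cultures, so the p-values speak only of the spread among these libraries, and that spread may be technical. The named genes were the 9 members, their neighbours, 1 most similar gene each and at most 3 pathway genes per comparison and direction, by difference in percent covered. The genes and lists were chosen with earlier results of these data known. Alternatives were the flank, list length, signal filter, scale, peak number, blocks and left-out libraries. The result of 1 listed marker gene is not reported here.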

Additional observations from a re-analysis of the deposited data

Results flagged for a closer look

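EGFR in WT replicate 1 of the anti-YTHDF1 set was covered over 7.98% of its window, the highest of the 6 anti-YTHDF1 libraries, with a gap to the next of 0.684 of the whole range. Of 18 such groups tested chance would flag about 1 in 20.

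For 3 genes the same condition moved the antibodies in opposite directions against WT, with both libraries on 1 side each time; the difference between antibodies was not tested. In siARID1A minus WT, ALK had -5.40 percentage points with anti-ARID1A and 2.05 with anti-YTHDF1, and STK11 had -35.1 with anti-ARID1A and 13 with anti-YTHDF1. This pattern was shared by 14.3% of all genes, and the mean window in siARID1A was 0.535 times that in WT with anti-ARID1A and 1.14 times with anti-YTHDF1. On the relative scale neither gene showed it. In YTHDF1-KO minus WT, EGFR had 3.95 with anti-ARID1A and -3.09 with anti-YTHDF1, a pattern that 1.9% of all genes had in percent covered and 2.12% on the relative scale. With lists of equal length its anti-ARID1A difference was -0.372.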

How the results depend on the processing

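The number of genes differing between the antibodies was 13466, and it was 8311 without flanks, 8113 with lists cut to the same 40562 peaks, 3690 on the relative scale and 5414 by number of peaks. Of the 9 genes 9 passed, 4 on the relative scale and 2 by number of peaks (EGFR and MET). Leaving out 1 library gave 11345 to 14851 genes and 7 to 9 of the 9, the losses being BRAF and RB1. EGFR, MET and MYC passed under all 20 settings of percent covered and relative coverage (adjusted permutation p 0.00518 to 0.0259), while MYC missed by number of peaks (0.0915). ALK, BRAF, NF1, STK11 and RB1 each missed under at least 1 other setting. Relative coverage, here multiplied by the average of the 12 libraries' mean windows to read in points, turned the antibody difference of ERBB2 (-22.5 points, adjusted p 0.0311), ALK (-0.392, 0.794) and NF1 (-0.0443, 1). For ERBB2 the upper limit of relative coverage in the anti-ARID1A libraries sets this direction in WT and YTHDF1-KO cells.

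The counts of genes lying apart in the comparisons with WT were 7 for siARID1A and 6 for YTHDF1-KO with anti-ARID1A, and 3 each with anti-YTHDF1. Without 1 library they were 7 to 9, 6 to 9, 5 to 7 for YTHDF1-KO and 4 to 8 for siARID1A with anti-YTHDF1, where a lone library makes overlap less likely by construction. In YTHDF1-KO with anti-YTHDF1, 1 was left when the weaker part of each list, below its median signal, was dropped. In siARID1A with anti-ARID1A the direction turned on the relative scale for ERBB2 (13.3), NF1 (0.717), STK11 (3.57) and MYC (1.80), and relative to the 1 Mb around, chosen after seeing the data, for ERBB2 (0.396), ALK (0.115), NF1 (0.0975), STK11 (0.0616) and MYC (1.02). In YTHDF1-KO with anti-ARID1A it turned for EGFR with lists of equal length (-0.372) and for MET relative to the 1 Mb around (-0.136). The cause was not tested.

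Replicates share only a number in the labels. The correlation of the deviations of equally numbered libraries was 0.25, -0.12, -0.03 and -0.24 over the 4 comparisons, so the replicate block is given only here: with it 12637 genes and all 9 members passed in the antibody contrast. A crossed pairing in siARID1A with anti-YTHDF1 gave 5 of 9 genes.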
